A study of Homo sapiens with 24 samples.

Results

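The regions described here are 6451 exon-intron boundaries at which E7107 raised intron retention in HCT116 cells expressing Y36C PHF5A by more than it did in cells expressing WT PHF5A. They were selected on measured values. A boundary was kept if reads were found at its splice site in all 24 samples, if its mean percent spliced in (PSI) rose from DMSO to E7107 by at least 10 percentage points in Y36C cells, and if that rise was at least 10 points above the change in WT cells. Of 590222 boundaries listed, 202780 had reads at the site in all 24 samples, and the 6451 were 3.18% of these. They lay in 4830 introns of 2186 of the 11027 genes with a measured boundary, and 74 of them fell at no annotated gene.

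The experiment compared 4 groups of 6 samples of HCT116, a human colorectal carcinoma cell line, after 6 h of treatment. The groups were WT PHF5A with DMSO, WT PHF5A with E7107, Y36C PHF5A with DMSO and Y36C PHF5A with E7107. Each PHF5A form was introduced by lentivirus into the parental line and selected with blasticidin, so all 24 samples also carried the endogenous gene, and no dose of E7107 is given in the labels. The labels do not say whether the 6 samples of a group came from separate cultures, so the p-values below measure only the spread between these samples. The number of splice sites with reads was 281367 to 283782 in the 6 WT E7107 samples and 328615 to 340236 in the other 18, so fewer sites were seen in WT E7107, and read depth itself is unknown because the files give percentages. Of the epithelial genes looked up, CDH1 had reads in all 24 samples at 30 of 30 listed sites, KRT18 at 14 of 14, EPCAM at 17 of 20, KRT19 at 10 of 12, KRT8 at 21 of 26 and CLDN7 at 6 of 11, but CLDN4 at 0 of 9. The single listed sites of the blood gene HBB and the liver gene ALB had none, and of the collagen genes COL1A1 had reads throughout at 85 of 96 sites and COL3A1 at 0 of 2.

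PHF5A is a small zinc-binding subunit of SF3b, the part of the U2 snRNP that clamps the branch site of the intron before splicing. E7107, a pladienolide derivative, binds SF3b at the interface of SF3B1 and PHF5A and stalls spliceosome assembly, and Y36C is a PHF5A substitution found in cells resistant to it. An intron that is not removed is read through at both of its ends, at the donor (5' splice site) and at the acceptor (3' splice site). Here PSI at a boundary is the percentage of reads at a splice site that run from the exon into the intron, relative to all reads at that site, spliced reads included. A change of PSI in all cells and a larger change in some of the cells cannot be told apart in such bulk samples.

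Whole introns are shown for the members with the largest selected values that were short enough to print, so that the ends and the base composition of introns with this pattern can be seen. They are the coding-region introns of up to 300 bases among the 12 introns named by rule, and they were read 5' to 3' on the transcribed strand from GRCh37, the hg19 assembly. Capitals mark the GT at the donor end, the AG at the acceptor end and any CTNAC, a loose form of the human branch site motif, in the last 60 bases.
FANCL intron 10 (chr2:58390083-58390163, minus strand, 81 bases, 32.1% GC): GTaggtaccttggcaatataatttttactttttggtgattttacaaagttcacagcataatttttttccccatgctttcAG
METTL3 intron 9 (chr14:21967282-21967449, minus strand, 168 bases, 35.7% GC): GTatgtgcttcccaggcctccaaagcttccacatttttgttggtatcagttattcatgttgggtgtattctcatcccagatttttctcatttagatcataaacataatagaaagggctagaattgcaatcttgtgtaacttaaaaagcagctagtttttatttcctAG
RSKR intron 8 (chr17:26938675-26938785, minus strand, 111 bases, 45% GC): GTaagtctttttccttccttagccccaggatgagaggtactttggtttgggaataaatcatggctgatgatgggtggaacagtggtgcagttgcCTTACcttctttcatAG
PLEKHG4 intron 16 (chr16:67320570-67320651, plus strand, 82 bases, 62.2% GC): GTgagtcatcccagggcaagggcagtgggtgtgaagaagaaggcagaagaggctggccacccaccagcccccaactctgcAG
DGKA intron 10 (chr12:56333955-56334097, plus strand, 143 bases, 62.9% GC): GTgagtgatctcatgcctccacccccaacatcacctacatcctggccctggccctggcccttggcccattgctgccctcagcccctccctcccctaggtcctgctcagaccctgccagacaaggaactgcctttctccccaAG

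For contrast, the next sequence belongs to the coding-region intron of up to 300 bases with the largest opposite pattern, retained under E7107 in WT cells and not in Y36C cells. It lies in NR1D1, which encodes the circadian repressor REV-ERB alpha, where donor PSI rose by 95.4 points in WT and by 2.13 points in Y36C.
NR1D1 intron 3 (chr17:38252841-38252943, minus strand, 103 bases, 68.9% GC): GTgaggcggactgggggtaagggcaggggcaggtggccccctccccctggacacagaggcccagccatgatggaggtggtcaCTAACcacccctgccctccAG

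CTNAC was present in the last 60 bases in 1 of the 5 introns shown above from the selected set, RSKR, and in NR1D1. Over all introns the share with the motif differed little, with 27.8% at the selected boundaries and 26.5% at all 202780 boundaries. NR1D1 intron 3 is shorter than the METTL3, DGKA and RSKR introns and longer than those of FANCL and PLEKHG4. Its GC content, 68.9%, is above that of each of the 5 introns shown from the selected set. It is also well above the median of 43.6% at boundaries whose PSI rose more in WT, so this intron is not typical of them in GC.

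The selected boundaries were partly retained before any drug and rose in Y36C cells while in most cases WT cells stayed level or fell. In WT DMSO the sample medians over the 6451 boundaries were 13.5% at the lowest, 13.9% in the middle and 14.9% at the highest. In Y36C DMSO they were 12.5%, 13.2% and 13.3%. In WT E7107 they were 7.86%, 8.38% and 9.33%, below all 12 DMSO samples, and in Y36C E7107 they were 33.3%, 34.1% and 35%, above the other 18 samples. As the boundaries were chosen for this pattern, the separation is a description and carries no test.

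At single boundaries, the mean PSI in Y36C rose by a median of 17.3 points, with the middle of the distribution, from the lower to the upper quartile, at 13.3 to 23.5 points. The mean PSI in WT changed by a median of -2.48 points, and it was below 0 at 4218 boundaries (65.4%). The excess, that is the Y36C change minus the WT change, had a median of 20.1 points, and was at least 20 points at 3255 boundaries and at least 40 points at 483. Over all 202780 boundaries the median WT change was 4.50 points and the median Y36C change 0.411 points, and 65356 boundaries met the mirrored rule, rising by at least 10 points in WT and by at least 10 points more than in Y36C.

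**Figure D1:**
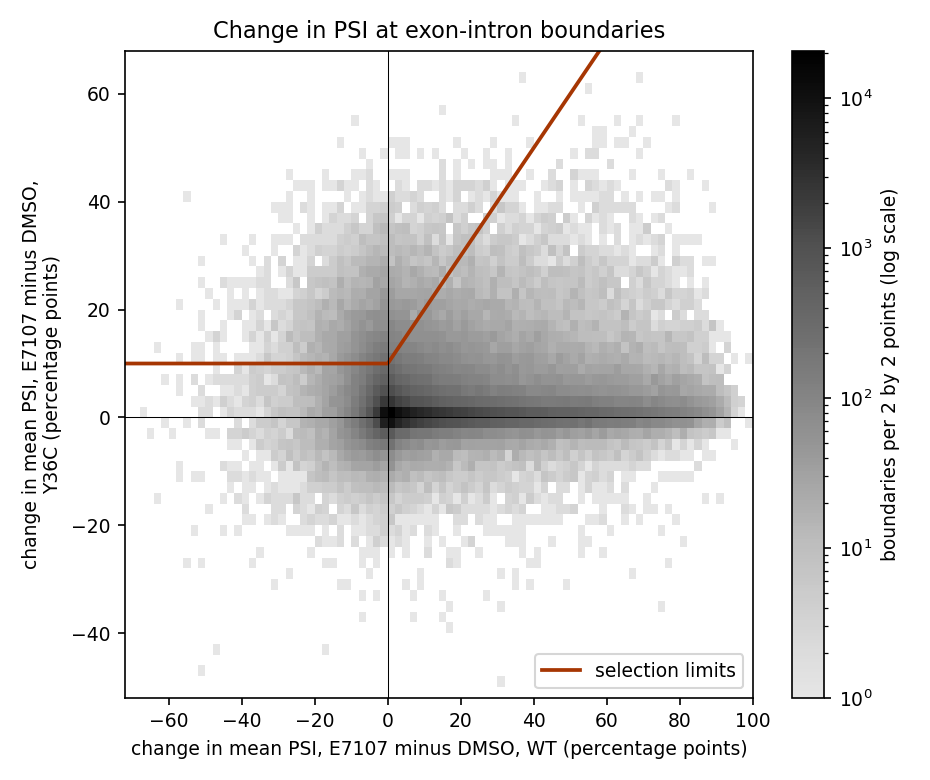
Change in mean PSI from DMSO to E7107 in WT cells (x axis, percentage points) and in Y36C cells (y axis, percentage points) for the 202780 boundaries with reads in all 24 samples, as counts per square of 2 by 2 points on a log grey scale. The red line marks the selection limits, and the 6451 boundaries on and above it spread to both sides of 0 on the WT axis, while most boundaries lie along the WT axis with Y36C changes near 0.

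Values at the limit of 10 points excess were close on both sides. Just inside were the donor of METTL2A intron 1, the acceptor of ZNG1A intron 11 and the acceptor of MGRN1 intron 11, with Y36C changes of 37.2, 10.5 and 11.1 points. Just outside were the acceptor of CLCN7 intron 8, the donor of PORCN intron 1 and the donor of ZDHHC4 intron 1, with Y36C changes of 16.7, 13.9 and 11.9 points. METTL2A had the largest Y36C change of these, and its PSI rose by 27.2 points in WT.

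The WT change divided the boundaries into 3 kinds. At 4708 boundaries (73%) the WT mean moved by less than 10 points, and the median PSI was 10.9% in WT cells with DMSO and 9.18% with E7107, against 10.4% in Y36C cells with DMSO and 28.8% with E7107. At 1309 boundaries (20.3%) the WT mean fell by at least 10 points, from a median of 28.4% to 9.51%, while Y36C went from 25.1% to 45.3%. At the other 434 (6.73%) both genotypes rose by at least 10 points, to medians of 32.7% in WT and 51.5% in Y36C. The boundaries that fell in WT started highest, but a fall of 10 points needs a start of at least 10%, so a high start is partly set by this division. Their introns had a median GC content of 53.2% and a median length of 704 bases, against 60.6% and 336 bases where both genotypes rose.

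Among the members, zeros were most common in WT E7107. At 3996 of the 6451 boundaries (61.9%) at least 1 WT E7107 sample read 0%. For the other groups this share of members was 33.9% (WT DMSO), 35.2% (Y36C DMSO) and 18.3% (Y36C E7107). How many of all boundaries had at least 1 such sample was not counted. All 6 WT E7107 samples read 0% at 645 members (10%), near the 8.99% of all 202780 boundaries. The share of members at 0 in all 6 samples was 1.67% in WT DMSO and 3.12% in Y36C DMSO, against 12.9% and 18% of all boundaries. In Y36C E7107 the rule left no member at 0 in all 6 samples, against 14.7% of all boundaries. A value of 0% means that no boundary read was counted at a site that had spliced reads, and the number of reads behind it is unknown.

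The introns with the largest excess at both boundaries were in genes of varied function, and METTL3 is given first because its replicates lay close together. METTL3 encodes the catalytic subunit of the RNA N6-adenosine methyltransferase. At the donor of its intron 9, of 10 introns, the lowest, median and highest PSI were 43.8%, 49% and 52.7% in WT DMSO and 14.3%, 19.8% and 27.6% in WT E7107. In Y36C cells they were 41.7%, 45.8% and 51% with DMSO and 70.8%, 75.6% and 80.4% with E7107. All 6 Y36C E7107 samples lay above, and all 6 WT E7107 samples below, every DMSO sample. The acceptor of the same intron went from a median of 52% to 15.5% in WT and from 52.7% to 76.4% in Y36C. The acceptor side of this intron is also covered by an exon annotated on the other strand, and the sources used here do not state whether the counting used strand.

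FANCL encodes the ubiquitin ligase subunit of the Fanconi anaemia core complex. The lowest, median and highest PSI at the donor of its intron 10 were 48.8%, 67.2% and 82.8% in WT cells with DMSO and 0%, 25.8% and 36.4% with E7107, against 46.7%, 56.1% and 63.6% in Y36C cells with DMSO and 69.6%, 77.1% and 83.3% with E7107. The Y36C E7107 samples lay above all Y36C DMSO samples but overlapped the WT DMSO samples. The neighbouring acceptor of FANCL intron 9 was a member too, with a median of 60.3% in WT cells with DMSO and 15.1% with E7107, against 54.4% in Y36C cells with DMSO and 81.2% with E7107. The low WT E7107 values were thus seen at adjacent introns of the gene.

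PLEKHG4 encodes a guanine nucleotide exchange factor. At the donor of its intron 16 the lowest, median and highest PSI were 28.8%, 33.7% and 47.4% in WT cells with DMSO and 11.8%, 17.9% and 25% with E7107, against 32.7%, 39.3% and 49.1% in Y36C cells with DMSO and 66.7%, 71.2% and 89.5% with E7107. DGKA encodes diacylglycerol kinase alpha, which phosphorylates the second messenger diacylglycerol. For the donor of its intron 10 the values were 9.52%, 24.7% and 40% in WT cells with DMSO and 0%, 2.17% and 7.14% with E7107, against 16%, 23.9% and 44.7% in Y36C cells with DMSO and 46.2%, 61.1% and 83.3% with E7107. At both donors the 6 Y36C E7107 samples lay above the other 18 samples, and the WT E7107 samples lay below all DMSO samples.

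In MKS1, a gene of the ciliary transition zone, all 6 WT E7107 samples read 0% at both boundaries of intron 15 (chr17:56283909-56284445, 537 bases). At its acceptor the other groups read 13.6%, 22.9% and 29.7% in WT DMSO, 15.6%, 25.1% and 30% in Y36C DMSO, and 42.9%, 68.9% and 91.7% in Y36C E7107, as lowest, median and highest. In RSKR, named for its relation to ribosomal protein S6 kinases, the acceptor of intron 8 read 0% in all 6 WT E7107 samples, with medians of 36.6% in WT DMSO, 43.4% in Y36C DMSO and 61.9% in Y36C E7107. In FN1, which encodes the matrix protein fibronectin, both boundaries of intron 41 (chr2:216232751-216235016, 2266 bases) read 0% in all WT E7107 samples, and the acceptor had medians of 56.4% in WT DMSO, 65% in Y36C DMSO and 84.5% in Y36C E7107. In each of these the Y36C E7107 samples ranged widely, for FN1 from 70% to 94.7%.

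The remaining 5 of the 12 had their highest median in Y36C E7107 and their lowest in WT E7107 as well, with a tie at the ATP2C2 donor. There the median was 0% in both WT E7107 and Y36C DMSO. At the donor of intron 8 of BACE1, the beta-secretase, median PSI was 50.6% in WT cells with DMSO and 4.17% with E7107, against 42.8% in Y36C cells with DMSO and 66.6% with E7107, and an exon annotated on the other strand covers this side too. At the acceptor of intron 21 of ATP2C2, a calcium and manganese pump of the secretory pathway, the medians were 25%, 0%, 31.5% and 61.2% in the same order. For HCN2, a hyperpolarisation-activated cation channel, the donor of intron 5 gave 60%, 0%, 64.6% and 76.4%. For TRIM16, a tripartite motif protein with a closely related neighbour, the donor of intron 1 gave 30.1%, 0%, 22.2% and 57.4%, and reads may be split between the copies. For YJEFN3, the donor of intron 6 gave 47.2%, 18.8%, 46.2% and 85%. In all 5 genes the lowest WT E7107 sample was 0% at a boundary, and in YJEFN3 the highest was 66.7%, within the range of the other groups.

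**Figure D2:**
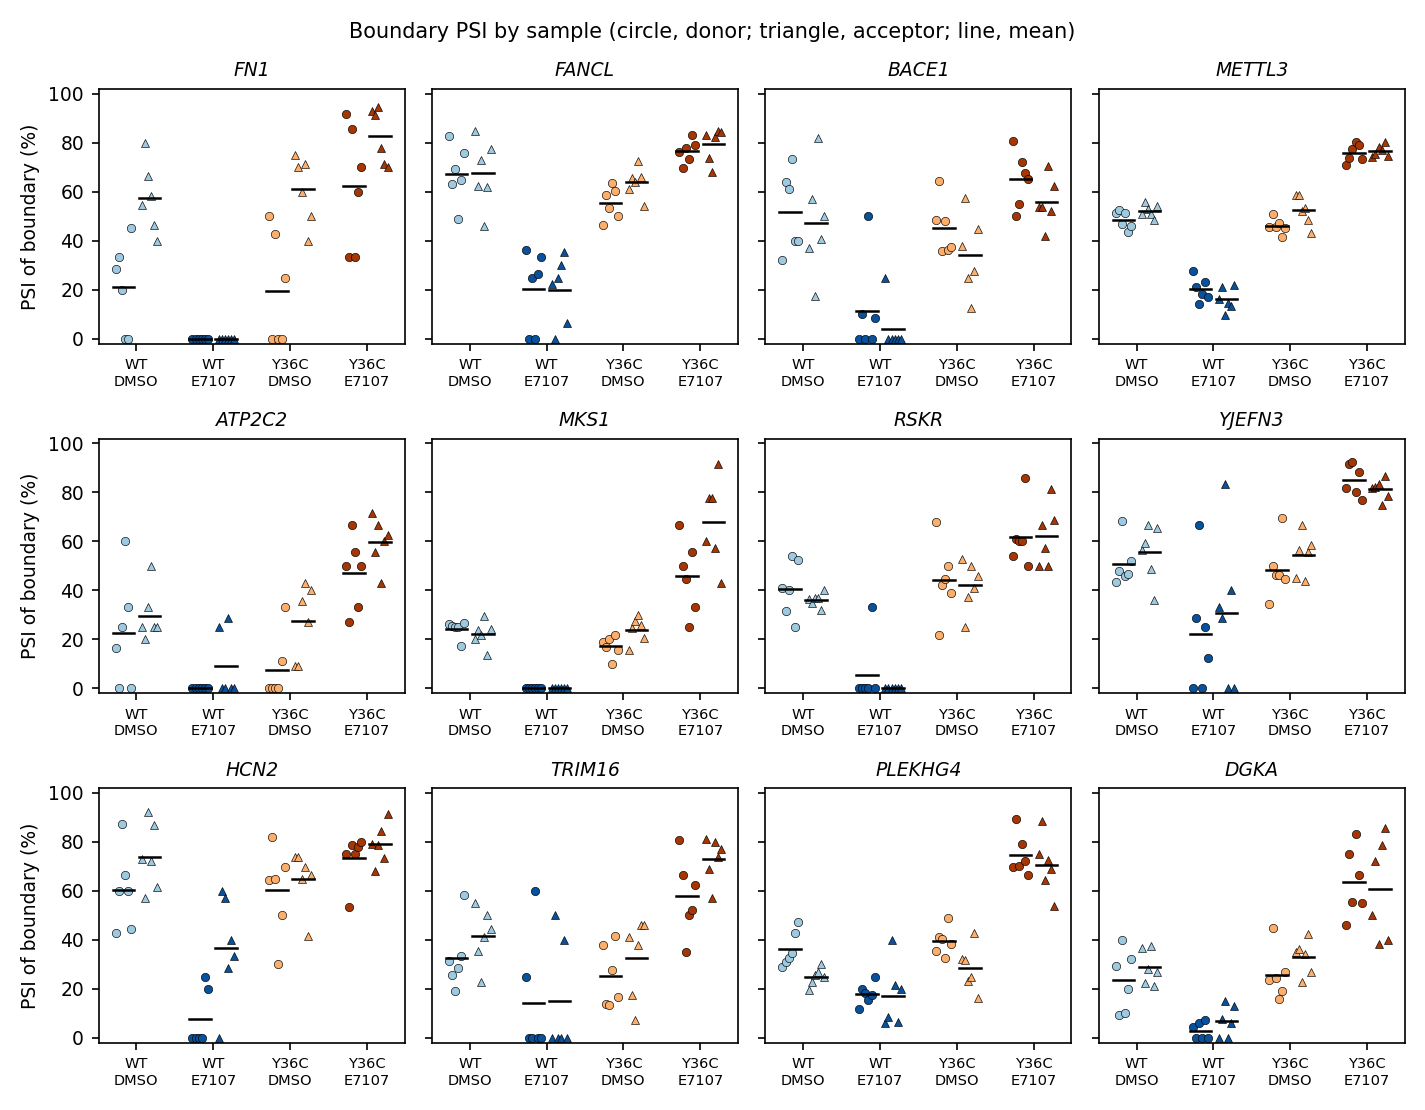
PSI (y axis, percent) at both boundaries of the 12 introns with the largest excess at both ends, by group (x axis), with 6 samples per group. Circles are donors, triangles are acceptors and lines are group means. Y36C E7107 samples sit highest in each panel on average and WT E7107 samples lowest, with all 12 WT E7107 values at 0 in FN1 and MKS1.

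Both ends of an intron were often selected, though not always. The opposite boundary had reads in all 24 samples for 6248 of the 6451, and it was itself a member for 3282 of these (52.5%). The most used junction named the same intron from both ends for 3242 of these, so 1621 introns of 4830 (33.6%) had both boundaries selected. For the 2966 whose opposite boundary was not a member, that boundary changed by a median of 5.79 points in Y36C and 0 points in WT, and its excess was above 0 at 2269 (76.5%). Over all boundaries 3.18% were members, and the upper quartile of the excess was 0.308 points. The opposite end reads the same intron in the samples that the rule used. Acceptors made up 53% of the members and 50% of all boundaries. Donors and acceptors in the set were therefore near balance.

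The rise at the boundary in Y36C was met by a fall in the share of the main spliced junction. The PSI of the most used spliced junction fell by at least 10 points in Y36C at 6143 boundaries (95.2%), with a median change of -18.4 points, and in WT it rose by a median of 2.63 points. PSI values at a site add up to 100, so a rise at the boundary must be met by a fall of spliced reads. Other junctions at the same site rose by at least 10 points at 214 boundaries (3.32%) in Y36C and at 177 (2.74%) in WT. At 1696 members (26.3%) the site had 1 spliced junction listed, so no other junction could rise there. These shares were not counted over all boundaries.

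The same difference was also read in samples whose PSI values had not been used to choose. The rule was applied 6 times, each time to 5 samples of every group, and the excess was read in the 4 samples left out, though all 24 samples still had to have reads at the site. Between 6596 and 6741 boundaries were chosen each time, of which 5632 to 5721 were among the 6451. Their median excess was 19.9 to 20.2 points in the samples that chose them and 15.2 to 16.7 points in the samples left out. In the samples left out the excess was above 0 at 77.1% to 78.9% of the chosen boundaries, against 24.5% to 28% of all boundaries, and 49.8% to 53.5% met both limits again, against 4.91% to 5.40% of all boundaries. The median Y36C change in the samples left out was 14.3 to 15.2 points, and the median WT change was -1.89 to 0 points. The direction was thus kept at most boundaries, and the size was smaller than in the samples that chose.

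**Figure D3:**
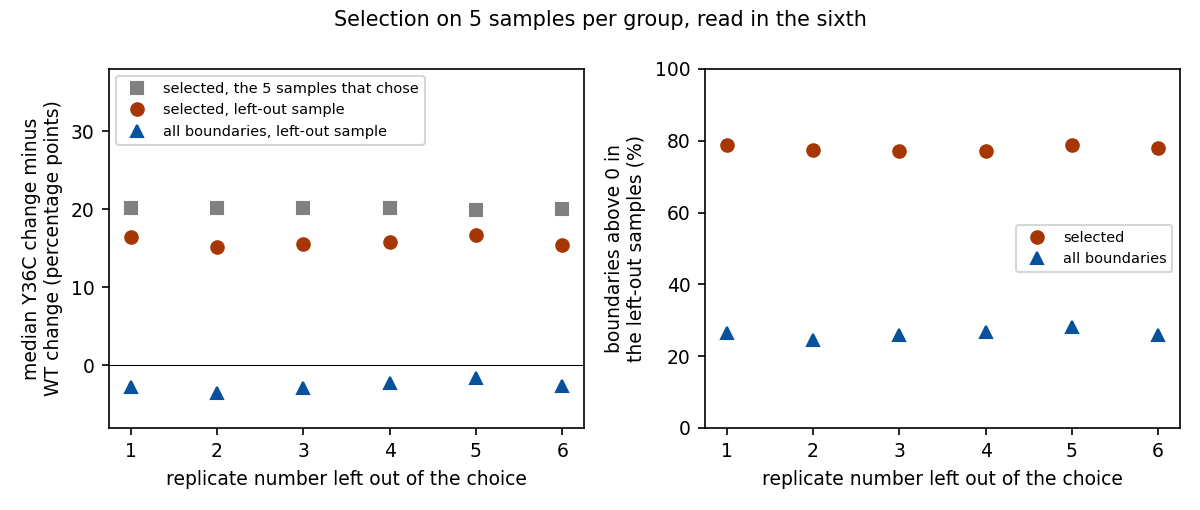
Left, the median Y36C change minus WT change (y axis, percentage points) for boundaries chosen on 5 samples per group, in those samples (squares) and in the left-out samples (circles), and for all boundaries in the left-out samples (triangles), by the replicate number left out (x axis). Right, the percentage of boundaries above 0 in the left-out samples, where chosen boundaries sit at 77.1% to 78.9% and all boundaries at 24.5% to 28%.

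The limma model gave the following counts on the contrasts that the rule used, from which nothing is read about the members. Of the 5459 members that passed the filter, 3618 were higher by an adjusted p of 0.05 or less for the Y36C change minus the WT change, where 8.96% of the 115226 boundaries tested were higher, and 992 members were not tested. For E7107 against DMSO in Y36C, 3850 of 5357 tested were higher, where 27.5% of all boundaries tested were higher. For E7107 against DMSO in WT, 325 of 4383 tested were higher and 1119 lower, where 70.9% of all boundaries tested were higher and 5.78% lower. At 1453 members the lowest Y36C E7107 sample lay above the highest of the 18 others, where 1.08% of all boundaries did so. The filter kept only rows whose 6 PSI values in some group were all above 0, so members passed it mostly through the group in which they were high.

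Few of these boundaries passed the test for a difference between the genotypes without drug. With DMSO, 34 of the 4681 members tested were higher in Y36C (0.726%) and 5 were lower (0.107%) by limma with an adjusted p of 0.05 or less, where 0.204% of the 81232 boundaries tested were higher and 0.165% lower. At an unadjusted p under 0.05 there were 775 members (16.6%) beside 12.9% of all boundaries tested. The DMSO values enter the rule, so these counts are also a description. The members with the lowest adjusted p, chosen after their values were seen, included the donor of intron 2 of ZWINT, a kinetochore protein, at 14.2%, 16.1% and 18% in WT DMSO and 27.4%, 30.2% and 31.1% in Y36C DMSO. Another was the donor of intron 9 of LETM1, a protein of the inner mitochondrial membrane, at 5.19%, 7.50% and 10.2% in WT DMSO and 18.7%, 19.4% and 23.4% in Y36C DMSO. At both donors the genotypes did not overlap before drug, and PSI rose further with E7107, to medians of 24.5% in WT and 52.4% in Y36C for ZWINT.

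The boundaries came mainly from introns that were already retained in part. The mean PSI over the 12 DMSO samples had a median of 13.8% at the members and 1.22% at all boundaries. It was 12.2% at the boundaries that rose by at least 10 points in both genotypes with changes less than 10 points apart. Of the members, 4076 (63.2%) started at 10% or more, against 12.4% of all boundaries. The share of boundaries selected was 0.116% where the DMSO mean was up to 1%, 7.36% between 5% and 10%, and 23.4% between 20% and 40%, then 9.62% above 40%. Boundaries with a low starting PSI were rare, with 106 members below 1%. The DMSO mean enters the rule, and a boundary with a low mean also has less room to fall in WT.

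The introns were shorter and richer in GC than the introns of all boundaries, and in this they were like the introns retained in both genotypes. Median intron length was 568 bases at the members, 1412 at all boundaries, 1246 where PSI rose more in WT, and 385 at the 2835 boundaries that rose by at least 10 points in both genotypes with changes less than 10 points apart. Median GC content was 55.7%, 44%, 43.6% and 57.1% in the same order. With 1 member per gene the medians were 906 bases and 51.8% GC, nearer to the values of all boundaries, which were not reduced to 1 per gene. GC content of the flanking exons was raised too, at 58.3% upstream and 58.1% downstream, against 50.8% and 48.6% at all boundaries. Where PSI rose in both genotypes it was 59.3% and 58.4%.

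The share of boundaries selected followed GC content step by step above 40%. It was 1.11% for introns of 35% to 40% GC, 2.88% for 45% to 50%, 5.59% for 55% to 60% and 9.35% above 65%. The share of boundaries that rose more in WT was 35.8% for introns of up to 35% GC and 30.7% to 32.3% in the classes above. Among boundaries with a DMSO mean of 5% to 10%, the selected share was 4.46% up to 45% GC, 6.78% between 45% and 55%, and 10.9% above 55%. With a DMSO mean of 10% to 20% it was 10.7%, 16.6% and 20.6%. Among introns over 1000 bases the corresponding shares were 1.18%, 3.07% and 5.34%, and among introns of up to 200 bases they were 1.67%, 3.80% and 8.67%. The share thus rose with GC in each of these classes of starting PSI and length, within which PSI and length still varied. Of the introns shown above, those of FANCL, METTL3 and RSKR lay below the members' median GC content and those of PLEKHG4 and DGKA above it.

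Length ran the other way. The share selected was 6.96% for introns of up to 100 bases, 4.77% between 200 and 500, 2.62% between 1000 and 2000, and 1.00% above 10000 bases. With a DMSO mean of 5% to 20% it was 16.1% for introns of up to 200 bases and 4.92% above 10000 bases. Members were also found more often towards the ends of transcripts, with 2.15% of boundaries selected at a relative position of 0 to 0.2 and 4.09% at 0.8 to 1, where 0 is the first intron and 1 the last. At a DMSO mean of 5% to 20% this rise was no longer steady, with shares of 7.96%, 10.6%, 12.2%, 12.6% and 10.7% from the start to the end. First introns made up 6.64% of the members and 10.2% of all boundaries.

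**Figure D4:**
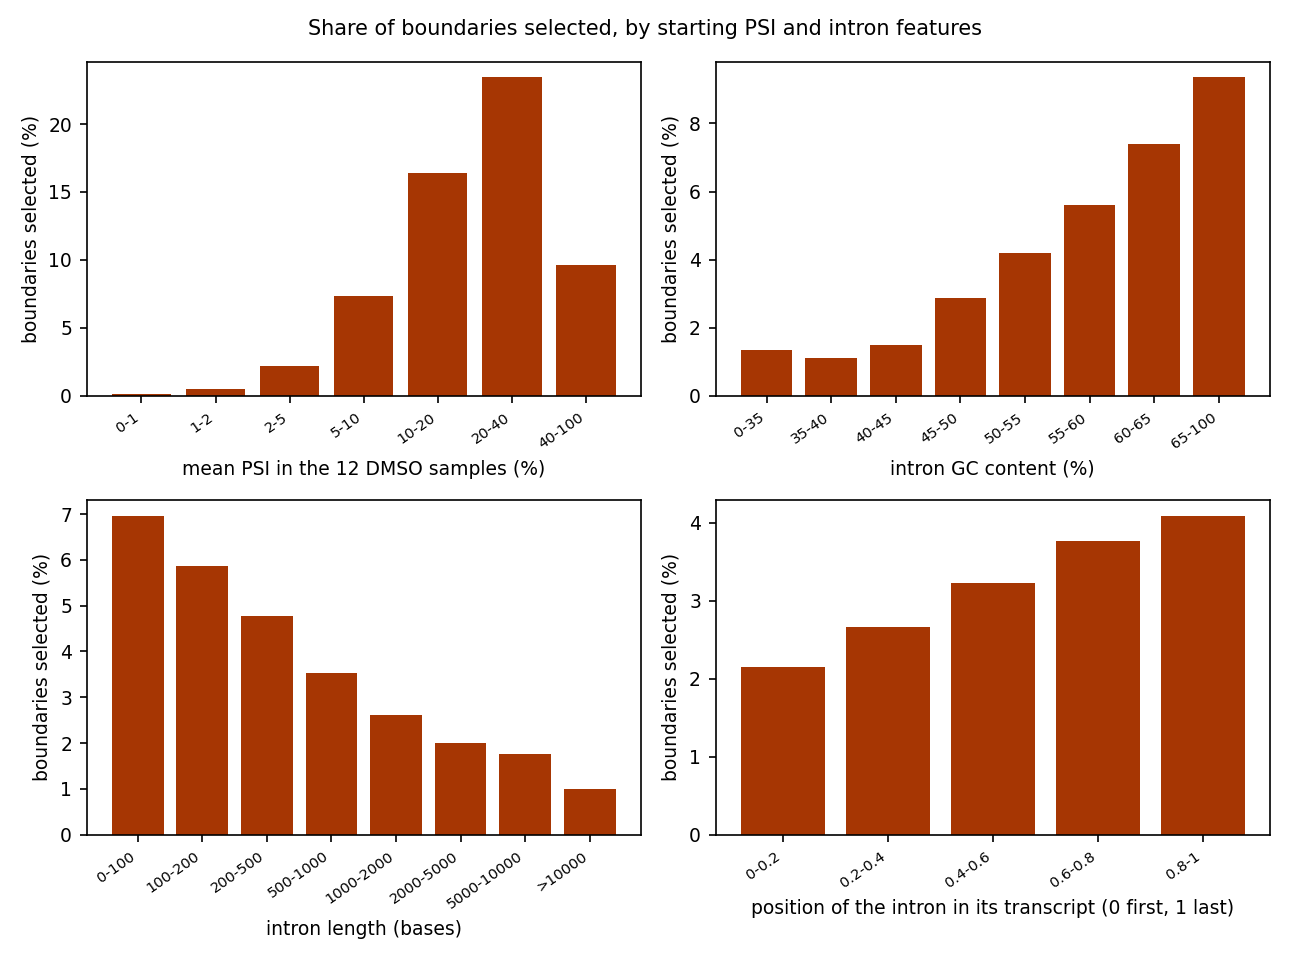
Percentage of measured boundaries that were selected (y axis) by the mean PSI of the 12 DMSO samples, by intron GC content, by intron length and by the position of the intron in its transcript (x axes, in bins). Bars rise with GC content to 9.35% and along the transcript to 4.09%, fall with length to 1.00%, and peak at 23.4% for a starting PSI of 20% to 40%.

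The splice sites kept the usual signals, with shifts in base use at variable positions. GT-AG ends were found at 98.8% of the members and 99% of all boundaries, and the median share of pyrimidines in the 18 bases before the AG was 77.8% in both. At the third intron base the donors had G in 47.9% and A in 45.4%, against 34.6% and 59.7% at all donors and 50.1% and 43.2% at donors that rose in both genotypes. At the base before the AG, the acceptors had C in 76.8%, against 62.7% at all acceptors and 77.5% at those that rose in both. These shifts to G and C went with the GC content of the introns, and their part in the selection was not tested. U12-type donors begin with GTATCC or ATATCC and are spliced by the minor spliceosome, which also contains SF3b. They were found at 0.961% of the members, 0.552% of all boundaries and 1.02% of those that rose in both.

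Annotation already recorded many of these introns as retained. At 45.7% of the members, base 10 on the intronic side lay in an annotated exon of the same strand, against 21.6% of all boundaries, 20.3% of those that rose more in WT and 45.6% of those that rose in both. In 33.4% of the members it lay in a transcript annotated as a retained intron, against 15.4% of all boundaries. With a DMSO mean of 5% to 20% the difference was small, with 11.9% of boundaries selected where the intronic side was in an annotated exon and 10.1% where it was not. Introns holding a small nucleolar RNA were nearly missing, at 0.0155% of the members, against 0.50% of all boundaries and 0.106% of those that rose in both.

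Members gathered in certain genes. Of the 2186 genes, 910 had exactly 1 member, while 381 had at least 5 and held 3085 of the members (47.8%). For each member with a measured neighbour, the share of members among the measured boundaries of the next intron was taken. This share averaged 25.7% upstream and 26.6% downstream, against 2.97% and 3.06% over all boundaries. The flanking introns changed by medians of 5.65 points upstream and 5.48 points downstream in Y36C, and by 0.593 and 0 points in WT, where over all boundaries the WT medians were 4.69 and 4.48 points.

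The unselected boundaries of these genes also differed from those elsewhere. In the 8841 genes without a member, boundaries changed by a median of 6.76 points in WT, and 40.1% rose more in WT. In genes with at least 5 members, the boundaries that were not selected changed by a median of 1.39 points in WT and 1.64 points in Y36C, and 10.8% rose more in WT. Retention in WT thus changed less over the genes with many members than over the genes with none. The genes were sorted by members, and the rule chose these partly on the WT change in the same samples. The unselected boundaries also include opposite ends of selected introns, so the difference is a description and not separate support. In the same comparison, genes with at least 5 members had a higher median intron GC content, at 56.3% against 42.2%. Their median DMSO PSI was higher too, at 2.63% against 0.956%.

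NBEAL2, a BEACH-domain protein needed for platelet alpha granules, held the most members, with 26 of its 104 measured boundaries. It was followed by ABCC3, an organic anion exporter, with 22 of 42, by ABCB6, a porphyrin transporter, with 21 of 36, by MEGF6, a protein with multiple EGF repeats, with 21 of 54, and by LPCAT3, a lysophospholipid acyltransferase, with 20 of 24. PRPF40B, a homologue of a yeast U1 snRNP protein, also had 20, of 48. In LPCAT3 the median over all its boundaries was -7.08 points in WT and 20.4 points in Y36C. In ABCC3 the medians were -6.45 and 11 points, with WT above 0 at 4 of 42 boundaries. None of the boundaries of NBEAL2, ABCC3 or LPCAT3 rose more in WT by the mirrored rule.

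The boundary with the largest excess is given for each of the 5 genes named first. In ABCB6, at the acceptor of intron 16, the lowest, median and highest PSI were 16.2%, 21.7% and 30.2% in WT cells with DMSO and 12.5%, 15.5% and 33.3% with E7107, against 7.41%, 12.5% and 23.4% in Y36C cells with DMSO and 40%, 62% and 70.3% with E7107. For the donor of NBEAL2 intron 46 they were 17.6%, 22.4% and 38.1%, then 11.4%, 23.6% and 28.6%, then 25.4%, 30.2% and 39.7%, and in Y36C E7107 53.2%, 67.1% and 73.6%. At both, the Y36C E7107 samples lay above the other 18 and the WT samples overlapped between treatments. At the acceptor of LPCAT3 intron 9 the WT medians were 33.3% and 15.7% and the Y36C medians 34.3% and 59.9%, and an exon on the other strand covers this side. At the acceptor of MEGF6 intron 34 the WT medians were 21.5% and 0% and the Y36C medians 7.69% and 42.7%, and the lowest Y36C E7107 sample, at 40%, lay above the highest of the others, at 37.5%. In ABCC3 the groups overlapped at the acceptor of intron 6, with 23.8% to 55.6% in WT DMSO, 0% to 42.9% in WT E7107, 11.1% to 57.1% in Y36C DMSO and 25% to 80% in Y36C E7107.

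**Figure D5:**
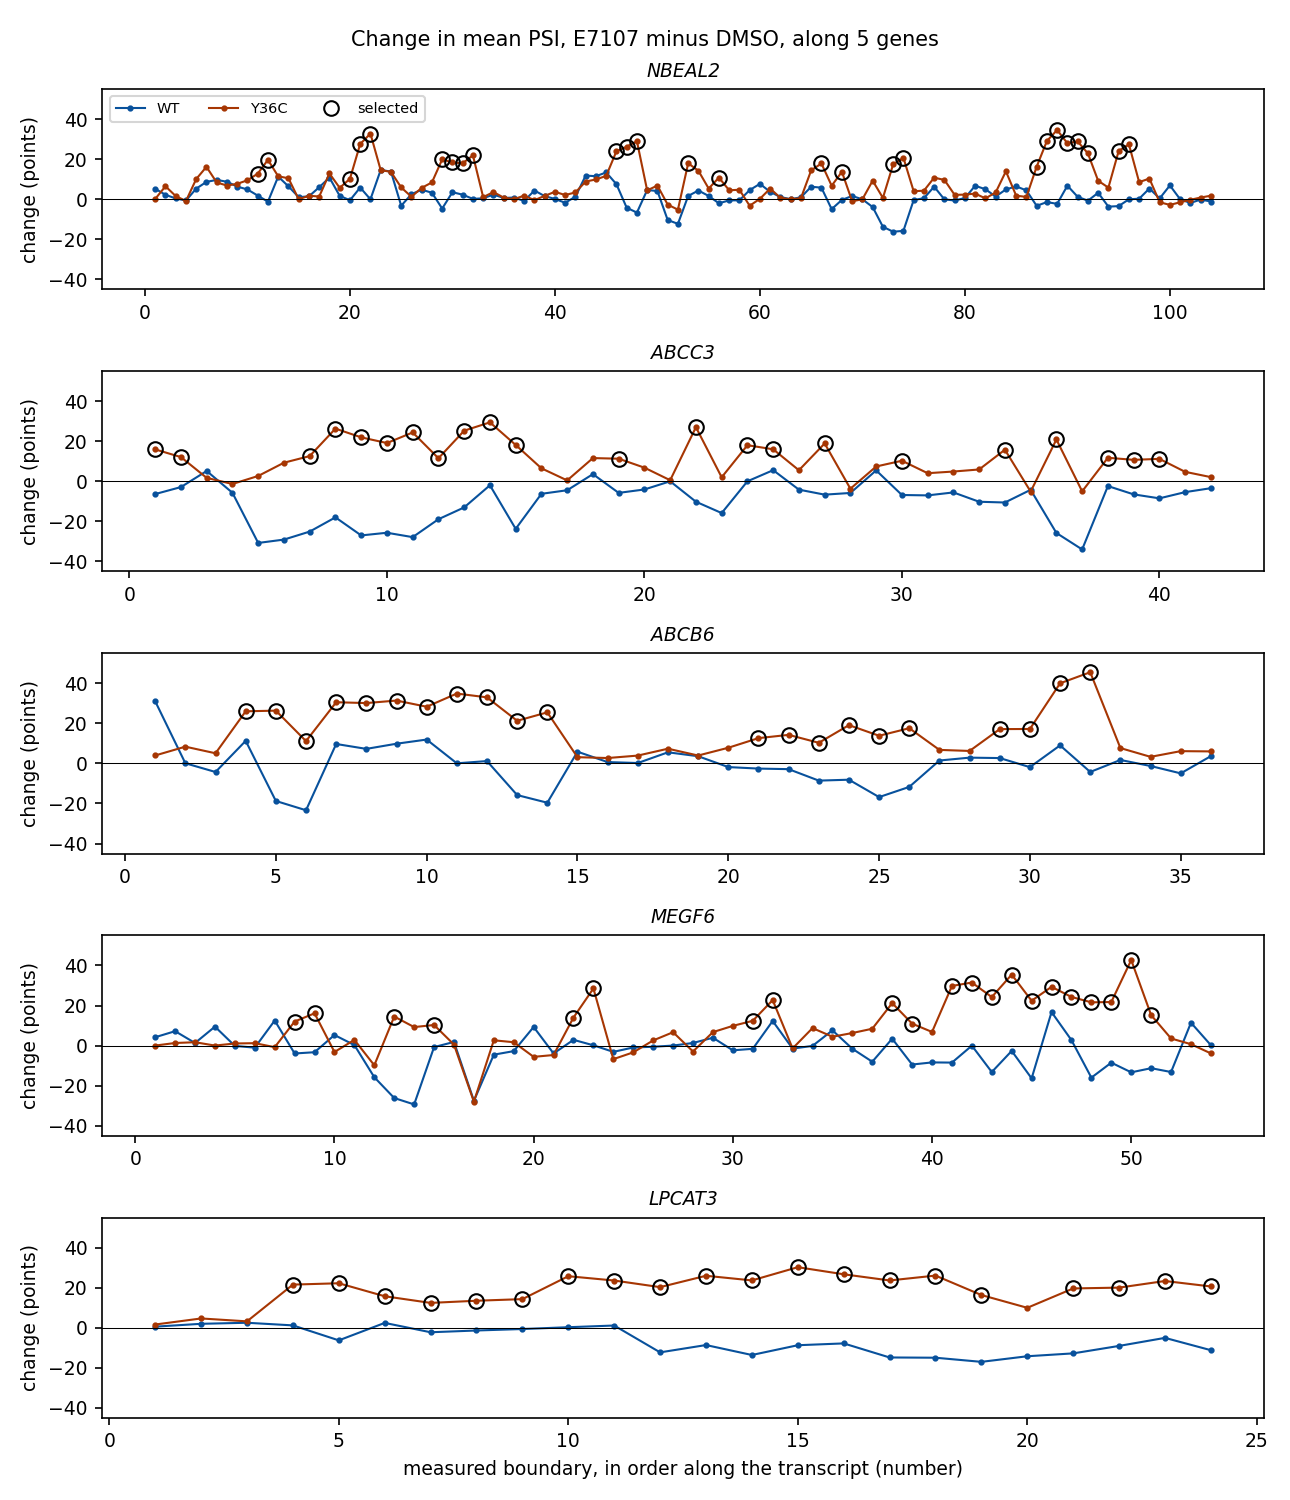
Change in mean PSI from DMSO to E7107 (y axis, percentage points) at each measured boundary in order along the transcript (x axis), for the 5 genes with the most members, with WT in blue, Y36C in red and selected boundaries circled. Selected boundaries run in blocks, and in LPCAT3 20 of 24 are selected.

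In 20 gene lists the share of measured boundaries selected ran from 0% to 3.41%, beside 3.18% of all boundaries, and 288 members lay in the lists. No list stood clearly above the share over all boundaries. It was highest for apoptosis regulators, with 11 of 323 (3.41%), followed by RAS, RAF and MAP kinases with 23 of 729 (3.16%), aminoacyl-tRNA synthetases with 37 of 1212 (3.05%) and DNA replication and repair with 66 of 2300 (2.87%). It was 0 of 183 for splicing kinases and 0 of 245 for SR proteins, whose boundaries changed by medians of 37.5 and 16.5 points in WT. It was 2 of 887 for cytosolic ribosomal proteins, 3 of 804 for proteasome subunits and 12 of 1648 for DEAD and DEAH box helicases.

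The lists of splicing factors had selected shares below that of all boundaries, and no test of these shares was made. The share was 4 of 541 boundaries (0.739%) for SF3a, SF3b and U2 factors, 26 of 1351 (1.92%) for other core spliceosome proteins, 6 of 595 (1.01%) for hnRNP proteins and 7 of 503 (1.39%) for nonsense-mediated decay and the exon junction complex. U2SURP, a U2 snRNP-associated SR-like protein, held all 4 members of the first list. At the acceptor of its intron 13 the lowest, median and highest PSI were 19.4%, 22.3% and 24.9% in WT cells with DMSO and 3.92%, 15.3% and 21.4% with E7107, against 14.1%, 19.3% and 26.1% in Y36C cells with DMSO and 33.7%, 39.7% and 43.6% with E7107, with Y36C E7107 above all other samples. PRPF40B held 20 of the 26 members among other core spliceosome proteins, while the hnRNP members lay in 4 genes. At the acceptor of intron 1 of HNRNPAB, an RNA-binding protein of the hnRNP family, the medians were 19.5% in WT cells with DMSO and 25% with E7107, against 17.6% in Y36C cells with DMSO and 43% with E7107, so the E7107 median was the higher in WT as well. All 7 members of the nonsense-mediated decay list were in UPF3A, a UPF2-binding factor.

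In translation, EIF2B5, the catalytic subunit of the guanine exchange factor for eIF2, gave the 3 largest values of the initiation factors. At the acceptor of its intron 3 PSI was 3.76%, 7.60% and 12% in WT cells with DMSO and 1.61%, 2.80% and 7.41% with E7107, against 4.39%, 7.28% and 10.2% in Y36C cells with DMSO and 23%, 37.7% and 43.3% with E7107. At the donor of intron 2 of CARS1, the cysteinyl-tRNA synthetase, the medians were 17.3%, 0%, 10.2% and 37.6% in the same order. For MRPL52, a mitochondrial ribosomal protein, the donor of intron 1 gave 48.3%, 40.9%, 49.4% and 83.4%. In EIF2B5 and MRPL52 the Y36C E7107 samples lay above all others. RPL37A, the only cytosolic ribosomal protein gene with members, had them at its introns 3 and 4. At the acceptor of intron 3 the medians were 57.2% in Y36C E7107 and 27.5% in WT DMSO, groups that differ in both genotype and drug. Of its 2 members tested by limma for the Y36C change minus the WT change, 0 passed.

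In signalling and cell division, DVL3, a dishevelled protein of the Wnt pathway, had both boundaries of intron 5 selected, with donor values of 20.7%, 25.3% and 35.9% in WT cells with DMSO and 8.33%, 27.2% and 33.3% with E7107, against 20.8%, 29.1% and 38.3% in Y36C cells with DMSO and 58.8%, 68.7% and 79.3% with E7107. Only the Y36C E7107 samples stood apart. For ARAF, a RAF kinase, the acceptor of intron 6 gave medians of 11.7%, 0%, 12.6% and 28.7%. For MAPK11, the p38 beta kinase, the donor of intron 5 gave 27.5%, 23.2%, 21.4% and 55.2%. CDK18, a cyclin-dependent kinase, had its 3 largest members at the acceptors of introns 11, 12 and 13, adjacent to each other. At intron 13 the median was 50.9% in Y36C E7107 and 10% in WT DMSO, groups that differ in both genotype and drug.

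Among apoptosis regulators, TRADD, the adaptor of the tumour necrosis factor receptor, had a median of 23.5% in WT cells with DMSO and 13.9% with E7107, against 28.2% in Y36C cells with DMSO and 55.9% with E7107 at the acceptor of its intron 2. For CASP9, the initiator caspase of the apoptosome, the donor of intron 3 gave 10.4%, 0%, 6.51% and 27.6%. In metabolism, the acceptor of intron 19 of PFKL, the liver-type phosphofructokinase, gave 11.1%, 8.56%, 13.6% and 29.2%, and the acceptor of intron 3 of NDUFS8, a complex I subunit, gave 9.14%, 3.56%, 16% and 28.9%. PFKL had 27.3% as its lowest Y36C E7107 sample and 15.2% as the highest of its DMSO samples.

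Of 5 genes that the study examined by name, CDK10 held members and the others held none. MCL1, an anti-apoptotic BCL2 protein, had 0 of 4 boundaries selected, CDC25B, a cell cycle phosphatase, 0 of 31, RBM5, an RNA-binding splicing regulator, 0 of 48, and EIF4A1, an initiation helicase, 0 of 23. Their boundaries changed by medians of 71.1, 30.6, 61.0 and 21.4 points in WT in that order, and all 48 of RBM5 rose more in WT. In CDK10, a cyclin-dependent kinase, 2 of 26 boundaries were selected, both ends of intron 10, and 15 rose more in WT. The donor of that intron read 41.7%, 49.8% and 62.4% in WT cells with DMSO and 49.2%, 65.7% and 73.6% with E7107, against 53.1%, 63.2% and 66.7% in Y36C cells with DMSO and 82.9%, 85.3% and 89.6% with E7107. The mean rose by 12.6 points in WT and by 23.5 points in Y36C, and the Y36C E7107 samples lay above all others.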

How the data were processed

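Poly-A RNA of 24 samples was sequenced, and the authors aligned the reads with STAR to hg19, per the submitters' notes, and deposited PSI as percent for each splice junction and each exon-intron boundary, relative to all reads sharing the splice site. Versions, read counts and strand use are not given in the sources used here. The 1830076 rows were the same in every sample, 1854 on the mitochondrial genome or without strand were left out, and PSI added up to 100 or 0 at every site. Members and gene lists were chosen with earlier results of these data known. Introns were taken as the most used spliced row at a site and annotated with GENCODE release 44 on GRCh37. The authors compared PSI between pairs of groups with limma. Here limma 3.58.1 (R 4.3.3) was run on log odds (natural logarithm, 1 point added to both sides), over all rows with reads in every sample compared whose 6 values in some group were all above 0, with Benjamini-Hochberg adjustment over all rows tested and 0.05 as limit, and the contrast of the Y36C change minus the WT change was added. It was tested on simulated data. Shares within classes of DMSO PSI were added after the values were seen. The 12 introns named first had the largest smaller excess of both boundaries, 1 per gene, in protein-coding transcripts. The other names were the up to 3 largest members per list, of which a part is printed, the 3 boundaries on each side of the limit, the 5 genes with most members and the study's own genes, of which 1 is not reported here.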

Additional observations from a re-analysis of the deposited data

Results flagged for a closer look

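Among 104 groups of 6 samples examined, 11 had a highest or lowest sample set apart from the others by more than the limit that Dixon's gap test sets for 6 values, where chance flags about 1 in 20. Over all members the rate was 16.1% in WT E7107 and 6.05% in Y36C E7107. In WT E7107 the values set apart were 50% at the BACE1 donor, 25% at the BACE1 acceptor and 33.3% at the RSKR donor, where at least 3 of the other 5 samples read 0%. In the DMSO groups they were 33.3% at the ATP2C2 donor and 41.7% at the HCN2 acceptor in Y36C, and 17.2% at the MKS1 donor, 58.3% at the TRIM16 donor and 68.4% at the YJEFN3 donor in WT. In Y36C E7107 they were 53.3% at the HCN2 donor and 85.7% at the RSKR donor. The median over all members was 14.9% in 1 WT DMSO sample, above the other 5. The effect of E7107 differed between the genotypes by the limma test of the Y36C change minus the WT change at 3618 of 5459 members tested, beside 8.96% of all boundaries tested, an outcome largely set by the selection on this difference.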

How the results depend on the processing

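The rule gave 6451 boundaries, 6934 with medians in place of means, 8510 with limits of 8 points, 3374 with limits of 15 points and 7986 with reads in at least 5 of 6 samples of every group, and 6370 to 6741 when 1 sample or 1 replicate number was left out. Of the boundaries chosen with medians, 5589 were among the 6451. The higher count for the Y36C change minus the WT change was 3165 to 3976 over the other offsets, the percent scale and the filters, and 3236 to 3324 without 1 replicate number. Replicate numbers did not pair the samples, as the deviations of same-numbered samples had a mean correlation of 0.000519. With a replicate block that count was 3562, the Y36C count 3281, and the WT counts 277 higher and 1013 lower. With DMSO the replicate block left 0 higher and 0 lower by limma, with 737 members at an unadjusted p under 0.05 beside 12.4% of all boundaries tested, and an offset of 0.1 left 1 lower and 24 higher. The median intron length was 485 bases by the shortest annotated intron and 906 bases with 1 member per gene. The median GC content was 51.8% with 1 member per gene and 54.4% where the intronic side lay in no annotated exon. Without read counts, the precision of single values is unknown.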

Other observations

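Members were spread unevenly over chromosomes, with 5.29% of measured boundaries selected on chromosome 16 and 4.93% on chromosome 19, and 1.65% on chromosome 18 and 1.85% on chromosome 5. These shares were not split by intron GC content or length, with which the selected share also varied.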
